A study of Homo sapiens with 4 samples.

Results

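The BCL2 family of apoptosis regulators was followed in Myla cells, a mycosis fungoides line (a lymphoma of skin-homing T cells), after knockdown of the forkhead transcription factor FOXM1. The members were 10 genes chosen by name, of 58735 genes in the deposited table: 4 that restrain cell death (BCL2, BCL2L1, MCL1, BCL2A1) and 6 that promote it (BAX, BAK1, BCL2L11, BBC3, PMAIP1, BID). The shFOXM1 group, 2 libraries, came from cells transduced with a lentiviral vector that carries a hairpin RNA against FOXM1. The shControl group, 2 libraries, came from cells given a lentiviral vector with a scrambled hairpin, and all 4 cultures were of the same line and carried a vector. Each culture received 10 uL of virus medium per 1 mL, had its medium changed after 24 h and was kept for 72 h more before RNA was taken. The submitters call the libraries biological replicates of 2 conditions. The labels do not say whether both shFOXM1 libraries carried the same hairpin or whether transduced cells were selected. Columns are headed Myla_sh0_1 and Myla_sh0_2 for shControl but Myla_sh1 and Myla_sh2 for shFOXM1, so 2 different FOXM1 hairpins are possible. A p-value here sets the group difference against the spread between the 2 libraries of a group, pooled over both groups. The fit also draws that spread toward the one of other genes of similar level. The spread between libraries may be technical or, in shFOXM1, a difference between hairpins, and these cannot be told apart.

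Proteins of this family set the permeability of the outer mitochondrial membrane. BAX and BAK1 form pores in it that release cytochrome c and so start the caspase cascade. The anti-apoptotic proteins bind and hold BAX, BAK1 and their activators, while the BH3-only proteins (here BCL2L11, also called BIM; BBC3, also called PUMA; PMAIP1, also called NOXA; and BID) occupy the anti-apoptotic proteins or activate the pore formers. Lymphoid cells commonly depend on 1 or more of the anti-apoptotic members for survival, and drugs that mimic BH3 peptides act on BCL2, BCL-XL (the long product of BCL2L1) or MCL1.

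Recovered whole reads numbered from 14147084 to 15017728 per library. FPKM values are fragments scaled by gene length and by a library size. FOXM1, the target of the knockdown, was at 9.27 and 5.59 FPKM in shFOXM1 1 and 2, and at 26.5 and 27.6 FPKM in shControl 1 and 2. Log2 differences between libraries of a group had an SD over genes of 0.424 in shFOXM1 and 0.263 in shControl. Of 13 T cell markers, 8 passed the filter for testing and the summed level of the list was 660 to 884 FPKM in shFOXM1 and 753 to 757 FPKM in shControl. Among the defining ones CD3D, CD3G, TRAC, TRBC2 and CD2 were present, while CD4 was listed at 0 in all 4 libraries and CD3E, CD5, CD7 and TRBC1 stayed under 1 FPKM. The lists of 6 markers each for B cells, monocytes, fibroblasts with endothelium and keratinocytes summed to between 0.543 and 19.4 FPKM in shFOXM1 and between 1.97 and 14.3 FPKM in shControl, with 1, 1, 2 and 3 of their genes at 0 in every library. Single markers of these lists were expressed in every library: CSF1R at 8.47 to 13.5 FPKM, KRT10 at 8.18 to 11.1, CDH1 at 2.37 to 8.34 and COL1A1 at 2.5 to 4.48. The B cell marker CD79A was at 0.27 and 7.38 FPKM in shFOXM1 1 and 2, and at 1.73 and 1.44 FPKM in shControl 1 and 2. All other genes of these lists stayed under 1 FPKM. The part of these lists in the results was not tested. In bulk RNA, fewer cells of a type and less RNA per cell cannot be told apart.

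The 10 members fell into a high tier, a low tier and a pair that was not detectable. In shControl the order of mean levels per length was PMAIP1 at 70.8 ± 1.31 FPKM, BAX at 67.1 ± 4.01, MCL1 at 55.8 ± 4.2, BCL2L1 at 50.4 ± 3.56, BAK1 at 19.9 ± 1.84, BBC3 at 10.3 ± 1.18, BID at 3.38 ± 0.391 and BCL2 at 0.88 ± 0.0672 (mean ± SD, n = 2). Neighbours whose libraries overlapped in that order were PMAIP1 with BAX and MCL1 with BCL2L1. In shFOXM1 BCL2L1 was first, at 113 ± 42.3 FPKM, ahead of BAX at 74.9 ± 3.94, PMAIP1 at 71.3 ± 3.36 and MCL1 at 70 ± 8.3 (mean ± SD, n = 2), and the libraries of the last 3 overlapped. BAK1, BBC3, BID and BCL2 kept places 5 to 8 in both groups. The gene length behind each value was the union of annotated exons, so a member expressed mainly from a short transcript is understated on this scale.

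**Figure D1:**
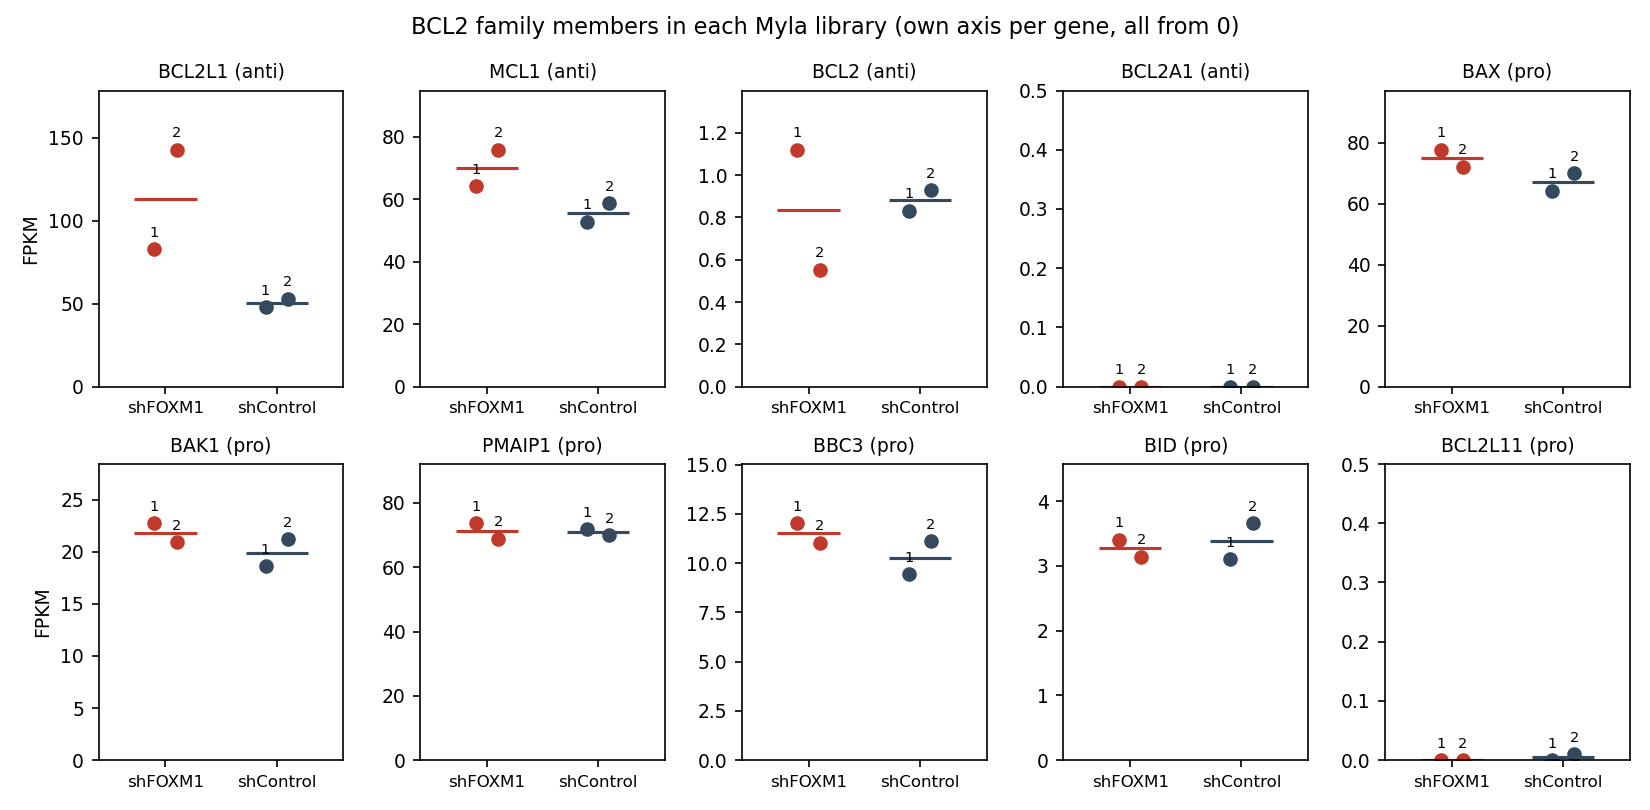
FPKM of each of the 10 members in each library, with shFOXM1 left of shControl in every panel; points are libraries numbered as in the labels, horizontal lines are group means, and each panel has its own axis from 0. BCL2L1 and MCL1 have both shFOXM1 points above both shControl points, BAX does so by a small margin, and BCL2A1 and BCL2L11 lie at or near 0.

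BCL2L1 stood apart from the other members in the size of its difference. This gene (ENSG00000171552; GRCh38 chromosome 20, positions 31664452 to 31723989, minus strand) encodes the anti-apoptotic BCL-XL and, by alternative splicing, the short pro-apoptotic BCL-XS. It was at 82.8 and 143 FPKM in shFOXM1 1 and 2, and at 47.9 and 52.9 FPKM in shControl 1 and 2, from 4063 and 7205 reads in shFOXM1 and 2252 and 2587 reads in shControl. Both shFOXM1 libraries were above both shControl libraries, and shFOXM1 2 was the higher of the pair by far. The ratio of group means was 2.24, and the log2 fold change on the log2(FPKM + 1) scale was 1.10 (SE 0.27, 95% interval 0.39 to 1.80). That missed the threshold over all 12033 genes tested (limma, unadjusted p = 0.0104, adjusted p = 0.191). Only 59 genes tested, or 0.49%, had a larger log2 fold change. Among the 807 genes with a mean of at least 50 FPKM, a level chosen after the values were seen, BCL2L1 ranked 3, behind SQSTM1, an autophagy receptor, and the transcript AL139393.2.

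The call on BCL2L1 depended on which libraries were in the fit. Fitted without shFOXM1 1, its log2 fold change was 1.48 and passed (limma adjusted p = 0.0122), as did 25.8% of all genes. Fitted without shFOXM1 2, it was 0.71 and also passed (limma adjusted p = 0.0417), as did 5.29% of all genes. The lone shFOXM1 library is there taken to vary as the controls did. Leaving out shControl 1 gave an adjusted limma p of 0.926 and leaving out shControl 2 one of 0.904, with 0% of genes called in each. An antisense gene, ABALON, lies within BCL2L1 near its start, on the other strand, and held 15 reads in each shFOXM1 library and 10 and 12 reads in shControl 1 and 2. The strand setting of the counting is not given in the sources used here, so reads of overlapping genes cannot be told apart. Gene-level values do not separate the BCL-XL and BCL-XS transcripts.

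The stretch just before the annotated start of BCL2L1 is shown because this gene had the largest difference of the 10 members, with the same stretch of BAX, an abundant member that differed little, and of BCL2L11, which had almost no reads. They come from RefSeq (GRCh38.p14), 5′ to 3′ on the strand of the gene, from up to 250 bases before the start and with annotated exons left out: BCL2L1 from chr20:31723990-31724213 (minus strand), BAX from chr19:48954625-48954814 (plus strand) and BCL2L11 from chr2:111120664-111120913 (plus strand). The start used for BCL2L11 lies inside the gene as GENCODE annotates it. Capitals mark the only match to a motif, a forkhead core.
BCL2L1: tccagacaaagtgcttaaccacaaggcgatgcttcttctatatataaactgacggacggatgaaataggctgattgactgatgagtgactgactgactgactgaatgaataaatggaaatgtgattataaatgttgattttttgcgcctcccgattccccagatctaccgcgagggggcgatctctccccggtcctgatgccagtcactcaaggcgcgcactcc
BAX: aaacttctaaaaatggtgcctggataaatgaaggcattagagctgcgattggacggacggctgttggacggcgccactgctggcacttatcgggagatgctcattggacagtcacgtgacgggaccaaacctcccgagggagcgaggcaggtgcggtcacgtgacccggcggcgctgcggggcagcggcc
BCL2L11: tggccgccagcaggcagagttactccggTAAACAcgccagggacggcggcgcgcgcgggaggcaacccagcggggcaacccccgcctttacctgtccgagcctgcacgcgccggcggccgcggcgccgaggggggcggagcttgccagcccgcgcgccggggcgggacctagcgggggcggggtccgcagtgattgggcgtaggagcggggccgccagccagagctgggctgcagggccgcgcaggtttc

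The motifs searched, on both strands, were a forkhead core (TAAACA), the cell cycle genes homology region that binds the MuvB complex (TTTGAA or TTCGAA), a STAT site (TTCNNNGAA) and an NF-kB site (GGG and TTTCC with 2 bases between). In 300-base windows around annotated starts (250 before and 50 after), 9 of 10 members had entries, 14 windows in all, and MCL1 had none. The forkhead core was in 2 of the 14 windows, 1 of BCL2L11 and 1 of the 5 of BID, against 12.3% of all 35116 windows. The homology region was in 0 of 14 against 16.4%, the STAT letters in 1, that of BCL2A1, against 7.66%, and the NF-kB letters in 0 against 1.91%. Both windows of BCL2L1 held none of these letters. GC made up 47.8% of the stretch shown for BCL2L1, 61.1% of that for BAX and 76.8% of that for BCL2L11.

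MCL1, the short-lived anti-apoptotic protein that binds NOXA and BIM, was the other abundant anti-apoptotic member. Its level was 64.2 and 75.9 FPKM in shFOXM1 1 and 2, and 52.8 and 58.7 FPKM in shControl 1 and 2. The groups did not overlap, though the gap between shFOXM1 1 and shControl 2 was smaller than the gap within either group. The fitted log2 fold change was 0.32 (SE 0.13, 95% interval -0.02 to 0.66) and missed the threshold (limma, adjusted p = 0.302). Fitted without shFOXM1 1 it was 0.44, and fitted without shFOXM1 2 it was 0.20. Its gene (ENSG00000143384; chromosome 1, positions 150574551 to 150579738, minus strand) had 4151 and 5055 reads in shFOXM1 and 3275 and 3787 reads in shControl.

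BCL2, the founding member and a survival factor of resting lymphocytes, was near the limit of the filter. It was at 1.12 and 0.552 FPKM in shFOXM1 1 and 2, and at 0.832 and 0.928 FPKM in shControl 1 and 2, from 195 and 99 reads in shFOXM1 and 139 and 161 reads in shControl. One shFOXM1 library lay above both shControl libraries and the other below them. Since fewer than 2 libraries reached 1 FPKM, BCL2 was not tested. Without the filter its adjusted limma p was 0.938. An antisense gene inside it, AC022726.2, held 43 and 15 reads in shFOXM1 1 and 2, and 26 and 43 reads in shControl 1 and 2.

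BCL2A1, an anti-apoptotic NF-kB target of activated leukocytes, had 0 reads in all 4 libraries. At this depth a level of up to 0.186 and 0.181 FPKM in shFOXM1 1 and 2, and of 0.194 and 0.187 FPKM in shControl 1 and 2, would not have been detectable (3 reads per library, counting error only). Among 19951 protein-coding genes, 25.8% likewise had 0 reads in every library.

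The pore-forming effectors differed less between groups than BCL2L1 and MCL1 did in fitted size, and 0 of 2 were called. BAX was at 77.7 and 72.1 FPKM in shFOXM1 1 and 2, and at 64.3 and 70 FPKM in shControl 1 and 2. Both shFOXM1 libraries were above both shControl libraries, by less than the difference within either group. Its log2 fold change was 0.16 (95% interval -0.12 to 0.44, limma adjusted p = 0.489). BAK1, the effector that resides on mitochondria, was at 22.7 and 20.9 FPKM in shFOXM1 1 and 2, and at 18.6 and 21.2 FPKM in shControl 1 and 2. Its groups overlapped, and its log2 fold change was 0.13 (95% interval -0.19 to 0.45, limma adjusted p = 0.622).

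Of the BH3-only genes 3 were measurable, and each had overlapping groups. PMAIP1 (NOXA), which neutralises MCL1, was at 73.7 and 68.9 FPKM in shFOXM1 1 and 2, and at 71.8 and 69.9 FPKM in shControl 1 and 2, with a log2 fold change of 0.0086 (95% interval -0.25 to 0.27). It was among the most even members of the family across the libraries. BBC3 (PUMA), a p53 target that binds every anti-apoptotic member, was at 12 and 11 FPKM in shFOXM1 1 and 2, and at 9.44 and 11.1 FPKM in shControl 1 and 2, with a log2 fold change of 0.16 (95% interval -0.19 to 0.50). BID, which caspase-8 cleaves to link death receptors to mitochondria, was at 3.4 and 3.14 FPKM in shFOXM1 1 and 2, and at 3.11 and 3.66 FPKM in shControl 1 and 2, with a log2 fold change of -0.034 (95% interval -0.40 to 0.33). Adjusted limma p was 0.975 for PMAIP1, 0.573 for BBC3 and 0.92 for BID. The intervals bound the size of any difference, and missing the threshold does not show that the levels are alike.

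BCL2L11 (BIM), the BH3-only activator that ends the life of many lymphocytes, had 0 reads in both shFOXM1 libraries and 0 and 1 reads in shControl 1 and 2. In the libraries at 0, levels of up to 0.0304 and 0.0296 FPKM in shFOXM1 1 and 2, and 0.0317 FPKM in shControl 1, would not have been detectable (3 reads per library). Its gene (ENSG00000153094) spans positions 111119378 to 111168447 of chromosome 2 on the plus strand. ACOXL, the protein-coding gene that ends 1155 bases before it, had 0 reads in both shFOXM1 libraries and 0 and 1 reads in shControl 1 and 2. The protein-coding genes next beyond were expressed: BUB1, a mitotic checkpoint kinase 441263 bases before BCL2L11, was at 17.1 and 11.9 FPKM in shFOXM1 1 and 2, and at 21.3 and 19.3 FPKM in shControl 1 and 2. ANAPC1, a subunit of the anaphase-promoting complex 443191 bases after it, was at 11.6 and 9.12 FPKM in shFOXM1 1 and 2, and at 12.1 and 12.7 FPKM in shControl 1 and 2. The noncoding MIR4435-2HG, which overlaps BCL2L11 on the other strand, held 4 and 2 reads in shFOXM1 1 and 2, and 13 and 21 reads in shControl 1 and 2. These neighbours were chosen after their values were seen.

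**Figure D2:**
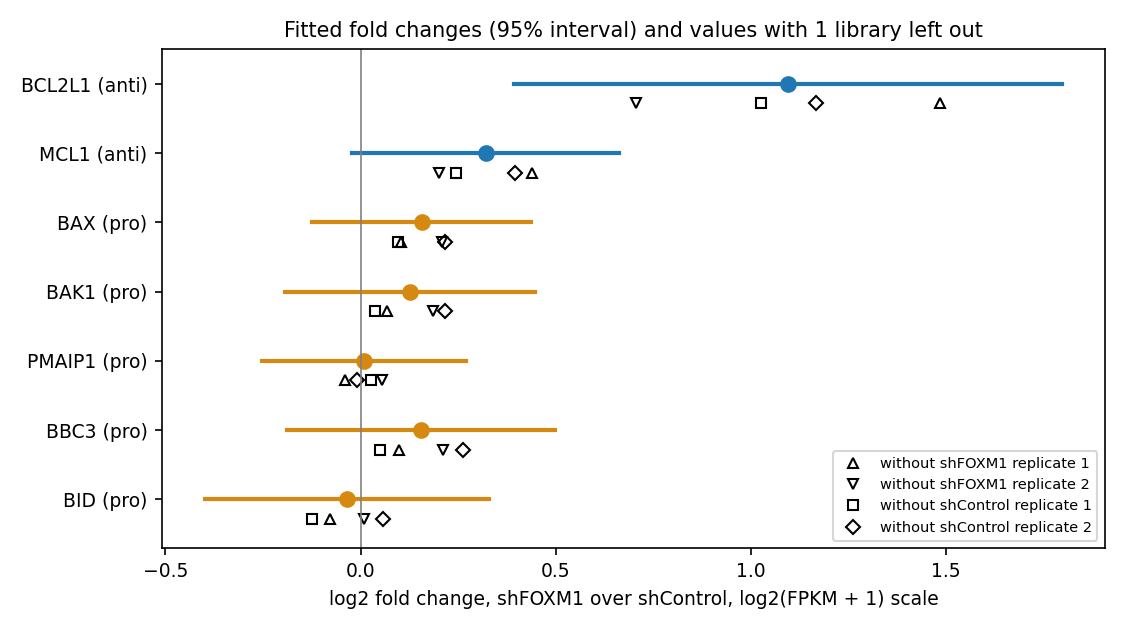
Log2 fold change of shFOXM1 over shControl on the log2(FPKM + 1) scale for the 7 members tested; filled points and bars are the fitted values with 95% intervals, and open symbols are the values with 1 library left out. BCL2L1 ranges from 0.71 to 1.48 over the left-out libraries, while PMAIP1 and BID have values on both sides of 0.

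Counted over the family, 7 of 10 members passed the filter of at least 1 FPKM in at least 2 libraries, and 0 of them were called by limma, where 0% of all genes tested were called. At an unadjusted limma p under 0.05, 1 of 7 was higher, against 8.82% of all genes, and 0 of 7 were lower, against 8.99% (17.8% in either direction). Voom on the recovered reads called 0 members, and so did voom with library weights, which called 0.216% of all genes. Both shFOXM1 libraries were above both shControl libraries for 3 of 7 members (BCL2L1, MCL1 and BAX), against 27.3% of all genes tested, and below them for 0 of 7, against 25.9% (53.2% in either direction). The median log2 fold change over the 7 was 0.16, against -0.00075 over all genes tested.

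**Figure D3:**
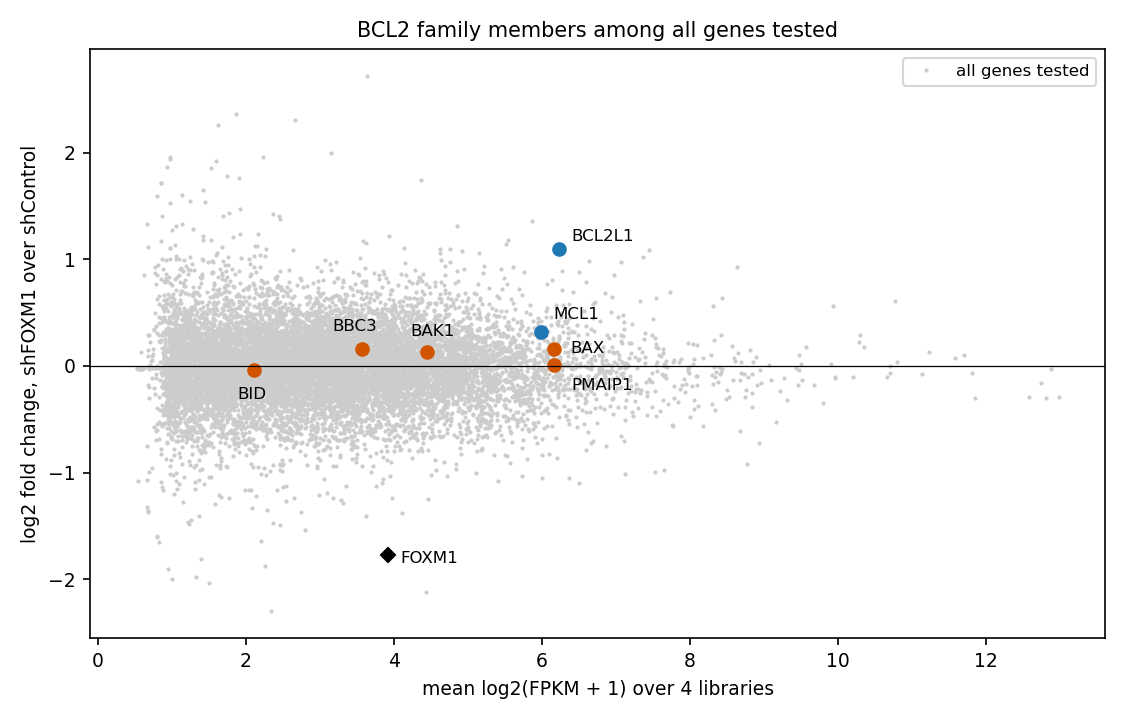
Log2 fold change of shFOXM1 over shControl against mean log2(FPKM + 1) over the 4 libraries for all 12033 genes tested (grey), with anti-apoptotic members in blue, pro-apoptotic members in orange and FOXM1 as a black diamond. BCL2L1 lies near the top edge for genes of its level at 1.10, and the 5 pro-apoptotic members tested lie between -0.034 and 0.16.

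Set side by side, the anti-apoptotic sum differed between groups more than the pro-apoptotic sum. Summed over the 4 anti-apoptotic members the level was 148 and 219 FPKM in shFOXM1 1 and 2, and 102 and 113 FPKM in shControl 1 and 2. Summed over the 6 pro-apoptotic members it was 190 and 176 FPKM in shFOXM1 1 and 2, and 167 and 176 FPKM in shControl 1 and 2. The anti-apoptotic sum was thus 0.781 and 1.24 times the pro-apoptotic sum in shFOXM1 1 and 2, and 0.607 and 0.64 times in shControl 1 and 2. On the log2 scale this ratio was -0.02 ± 0.47 in shFOXM1 and -0.68 ± 0.05 in shControl (mean ± SD, n = 2 each), a difference of 0.66, given as a description with no test. The 2 groups did not overlap, and the SD within shFOXM1 was close to the size of the difference. In shFOXM1 2 the anti-apoptotic sum exceeded the pro-apoptotic sum, and in the other 3 libraries it did not.

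Most of that difference lay in BCL2L1. It made up 55.9 and 65.1% of the anti-apoptotic sum in shFOXM1 1 and 2, and 47.2 and 47% in shControl 1 and 2, while BCL2 made up at most 0.824% in any library. BCL2L1 was 1.29 and 1.88 times MCL1 in shFOXM1 1 and 2, and 0.907 and 0.901 times in shControl 1 and 2. Against BAX it was 1.07 and 1.98 times in shFOXM1 1 and 2, and 0.745 and 0.756 times in shControl 1 and 2. The ratio of MCL1 to PMAIP1, the pair whose proteins bind each other, was 0.871 and 1.1 in shFOXM1 1 and 2, and 0.736 and 0.84 in shControl 1 and 2. Without BCL2L1 in the sum the log2 difference of the ratio was 0.23, and without MCL1 it was 1.01. With each of the 10 members weighted alike on the log2 scale it was 0.27. That value takes in the 3 members not tested, which draw both means toward 0. Their log2 differences were -0.051 for BCL2, 0 for BCL2A1 and -0.0073 for BCL2L11.

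**Figure D4:**
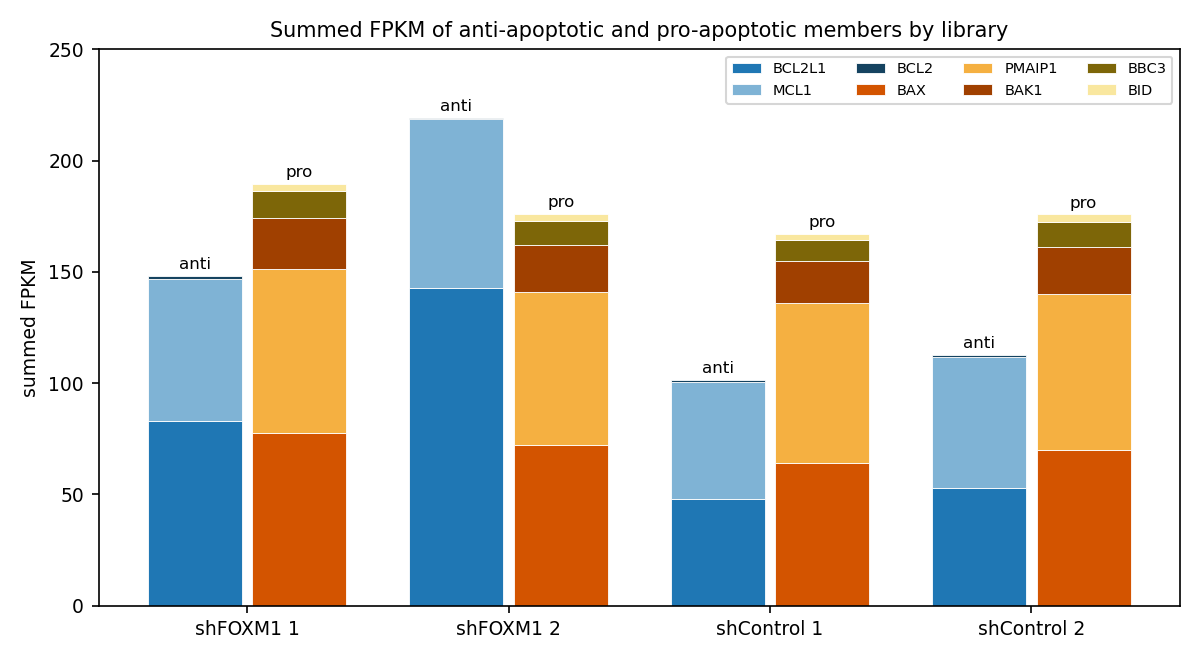
Stacked FPKM of the anti-apoptotic (left bar) and pro-apoptotic (right bar) members in each library, with the 2 shFOXM1 libraries left of the 2 shControl libraries; BCL2A1 and BCL2L11 are too low to be seen. The pro-apoptotic bars lie between 167 and 190 FPKM, and the anti-apoptotic bar is taller than its partner only in shFOXM1 2.

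Within the shFOXM1 group the tested members were not all ordered alike. BCL2L1 and MCL1, the tested anti-apoptotic members, were higher in shFOXM1 2 than in shFOXM1 1, and 0 of 5 tested pro-apoptotic members were, against 46.6% of all genes tested. The pro-apoptotic gaps were small, as in BAX (77.7 and 72.1 FPKM), BBC3 (566 and 535 reads) and BID (224 and 213 reads). The deposited scale itself differed from the read total by -1.44% in shFOXM1 1 and 3.80% in shFOXM1 2. Whether the order goes with role was not tested. BCL2, anti-apoptotic but under the filter, was lower in shFOXM1 2 as the tested pro-apoptotic members were, and so was FOXM1. Family genes outside the 10 members did not all keep this order by role. The pro-apoptotic BAD (10.1 and 14.1 FPKM in shFOXM1 1 and 2) and BMF (11 and 121 reads) were higher in shFOXM1 2. The pro-apoptotic BIK (2 and 1 reads) was lower there, and the anti-apoptotic BCL2L2 (2.63 and 4.81 FPKM) was higher. Within shControl, 2 of 2 anti-apoptotic and 4 of 5 pro-apoptotic members were higher in shControl 2, against 52.5% of all genes tested.

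The rest of the BCL2 family was mostly low. Of 13 other genes 6 passed the filter, 3 with a higher and 3 with a lower shFOXM1 mean. Their median log2 fold change was 0.06, and limma called 0 of them, while unadjusted p was under 0.05 for 1 higher and 1 lower gene of the 6 (17.8% of all genes in either direction). BNIP3L, a mitophagy receptor that is classed with the family by its BH3-like stretch, was at 11 and 8.52 FPKM in shFOXM1 1 and 2, and at 29.7 and 24.1 FPKM in shControl 1 and 2, a log2 fold change of -1.38 (SE 0.18). Its adjusted limma p was 0.173. BNIP3, its hypoxia-induced relative, was at 4.76 and 2.34 FPKM in shFOXM1 1 and 2, and at 6.36 and 5.45 FPKM in shControl 1 and 2. For this pair, 2 of the 6 tested, every shFOXM1 value was below every shControl value, against 25.9% of all genes tested. BCL2L13, a mitophagy receptor with BCL2 homology, was at 9.96 and 12.3 FPKM in shFOXM1 1 and 2, and at 8.15 and 7.4 FPKM in shControl 1 and 2, and BAD, which binds BCL-XL when dephosphorylated, at 10.1 and 14.1 FPKM in shFOXM1 1 and 2, and 9.08 and 8.41 FPKM in shControl 1 and 2. For these 2 of the 6, both shFOXM1 libraries were above both shControl libraries, against 27.3% of all genes tested. Log2 fold changes were 0.46 for BCL2L13 and 0.41 for BAD. Adjusted limma p was 0.233 for BCL2L13 and 0.324 for BAD. Without shFOXM1 1 the log2 fold change was 0.60 for BCL2L13 and 0.63 for BAD. Without shFOXM1 2 it was 0.32 for BCL2L13 and 0.19 for BAD. BNIP3 was at -1.04 without shFOXM1 1 and at -0.26 without shFOXM1 2. BNIP3L was at -1.54 without shFOXM1 1 and at -1.21 without shFOXM1 2.

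BCL2L2 (BCL-W), a further anti-apoptotic gene, stood out in a single library. It was at 2.63 and 4.81 FPKM in shFOXM1 1 and 2, and at 2.61 and 2.75 FPKM in shControl 1 and 2. Its log2 fold change was 0.66 without shFOXM1 1 and -0.019 without shFOXM1 2. BCL2L12 was at 9.51 and 13.4 FPKM in shFOXM1 1 and 2, and at 13.1 and 13.3 FPKM in shControl 1 and 2. Among those under the filter, the BH3-only gene BMF had 11 and 121 reads in shFOXM1 1 and 2, and 21 and 22 reads in shControl 1 and 2. BIK, another BH3-only gene, had 2 and 1 reads in shFOXM1 1 and 2, and 7 and 8 reads in shControl 1 and 2. BOK and BCL2L15 had 4 to 9 reads in every library. BCL2L10, HRK and BCL2L14 were listed at 0 in all 4 libraries.

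Downstream of the family, 14 of 15 genes of mitochondrial release and the apoptosome were tested, and the shFOXM1 mean was the higher in 7 and the lower in 7. The list had a median log2 fold change of 0.02, and limma called 0 of it, while unadjusted p was under 0.05 for 1 higher and 1 lower gene (17.8% of all genes in either direction). The groups did not overlap for 6 of the 14, against 53.2% of all genes. APAF1, the scaffold of the apoptosome, was at 11.4 and 11.5 FPKM in shFOXM1 1 and 2, and at 14.8 and 15.3 FPKM in shControl 1 and 2 (log2 fold change -0.36, limma adjusted p = 0.219). XIAP, an inhibitor of caspases, was at 8.73 and 9.9 FPKM in shFOXM1 1 and 2, and at 7.15 and 7.29 FPKM in shControl 1 and 2 (log2 fold change 0.33, limma adjusted p = 0.271). In APAF1 every shFOXM1 value was the lower and in XIAP every one was the higher. Cytochrome c (CYCS) was at 51 and 48.2 FPKM in shFOXM1 1 and 2, and at 55.3 and 58.4 FPKM in shControl 1 and 2. ENDOG, a mitochondrial endonuclease, was at 13.7 and 10 FPKM in shFOXM1 1 and 2, and at 9.14 and 10 FPKM in shControl 1 and 2. For ENDOG shFOXM1 2 and shControl 2 were nearly level. Without shFOXM1 1 the log2 fold change was -0.36 for APAF1 and 0.41 for XIAP. Without shFOXM1 2 it was -0.37 for APAF1 and 0.24 for XIAP.

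All 16 genes that act on the stability or phosphorylation of family proteins were tested, 9 with a higher and 7 with a lower mean. The median log2 fold change was 0.07 and limma made 0 calls, while unadjusted p was under 0.05 for 1 higher and 1 lower gene (17.8% of all genes in either direction). The groups did not overlap for 5 of the 16, against 53.2% of all genes. PIM1, a kinase that phosphorylates BAD, was at 30.2 and 37.8 FPKM in shFOXM1 1 and 2, and at 52 and 55 FPKM in shControl 1 and 2 (log2 fold change -0.65, limma adjusted p = 0.186). RPS6KA1, another kinase that phosphorylates BAD, was at 41.2 and 52.8 FPKM in shFOXM1 1 and 2, and at 29.2 and 32.7 FPKM in shControl 1 and 2 (log2 fold change 0.58, limma adjusted p = 0.207). These kinases of the same substrate lay apart in opposite directions, but neither was called and both were named for a small p. Of the other PIM and AKT kinases listed, log2 fold changes were -0.72 for PIM2, 0.04 for PIM3, -0.09 for AKT1 and 0.10 for AKT2. Groups overlapped for each of these except AKT2. HUWE1, a ubiquitin ligase of MCL1, was at 38.5 and 40.2 FPKM in shFOXM1 1 and 2, and at 32.7 and 32.8 FPKM in shControl 1 and 2. GSK3A, whose kinase family marks MCL1 for degradation, was at 17.7 and 19.9 FPKM in shFOXM1 1 and 2, and at 15.3 and 16.4 FPKM in shControl 1 and 2. Of PIM1, RPS6KA1, HUWE1 and GSK3A, PIM1 alone was lower in shFOXM1. The log2 fold change of PIM1 was -0.49 without shFOXM1 1 and -0.80 without shFOXM1 2. That of RPS6KA1 was 0.75 without shFOXM1 1 and 0.40 without shFOXM1 2. For HUWE1 it was 0.29 without shFOXM1 1 and 0.23 without shFOXM1 2.

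Of 20 transcription factors known to act on genes of the family, 17 were tested, 8 with a higher and 9 with a lower mean. The median log2 fold change was -0.03 and limma made 0 calls, while unadjusted p was under 0.05 for 3 higher and 3 lower genes (17.8% of all genes in either direction). The groups did not overlap for 12 of the 17, against 53.2% of all genes. STAT5A, an activator of BCL2L1 in blood cells, was at 183 and 212 FPKM in shFOXM1 1 and 2, and at 125 and 132 FPKM in shControl 1 and 2 (log2 fold change 0.61, limma adjusted p = 0.18). NFKB2, a subunit of NF-kB, which acts on BCL2L1 and BCL2A1, was at 235 and 311 FPKM in shFOXM1 1 and 2, and at 162 and 173 FPKM in shControl 1 and 2 (log2 fold change 0.69, limma adjusted p = 0.189). Both NFKB2 and STAT5A, like BCL2L1, were highest in shFOXM1 2, and their part in the level of BCL2L1 was not tested. Of the STAT factors also listed, STAT3 was highest in shFOXM1 2 too, with a log2 fold change of 0.26. STAT5B was highest in shFOXM1 1, at 95.6 and 88.2 FPKM in shFOXM1 1 and 2 (log2 fold change 0.18). Of the other NF-kB subunits, REL and RELA had log2 fold changes of 0.30 and 0.29, RELB of -0.11 and NFKB1 of -0.43. NFKB1 was lowest in shFOXM1 2, while REL, RELA and RELB were highest there. E2F1, a factor of the G1 to S transition, was at 24.3 and 29.2 FPKM in shFOXM1 1 and 2, and at 45.8 and 47.3 FPKM in shControl 1 and 2 (log2 fold change -0.79, limma adjusted p = 0.176). FOXO1, which activates BCL2L11 and BBC3, was at 8.37 and 7.56 FPKM in shFOXM1 1 and 2, and at 10.5 and 10.9 FPKM in shControl 1 and 2 (log2 fold change -0.38, limma adjusted p = 0.226). FOXO3, the other FOXO factor listed, lay the other way, at 10.4 and 22.2 FPKM in shFOXM1 1 and 2. In shControl 1 and 2 it was at 8.56 and 9.89 FPKM (log2 fold change 0.67, limma adjusted p = 0.385). Without shFOXM1 1 the log2 fold change was -0.66 for E2F1, 0.71 for STAT5A, 0.89 for NFKB2 and -0.45 for FOXO1. Without shFOXM1 2 the values were -0.91, 0.51, 0.49 and -0.32 in that order.

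**Figure D5:**
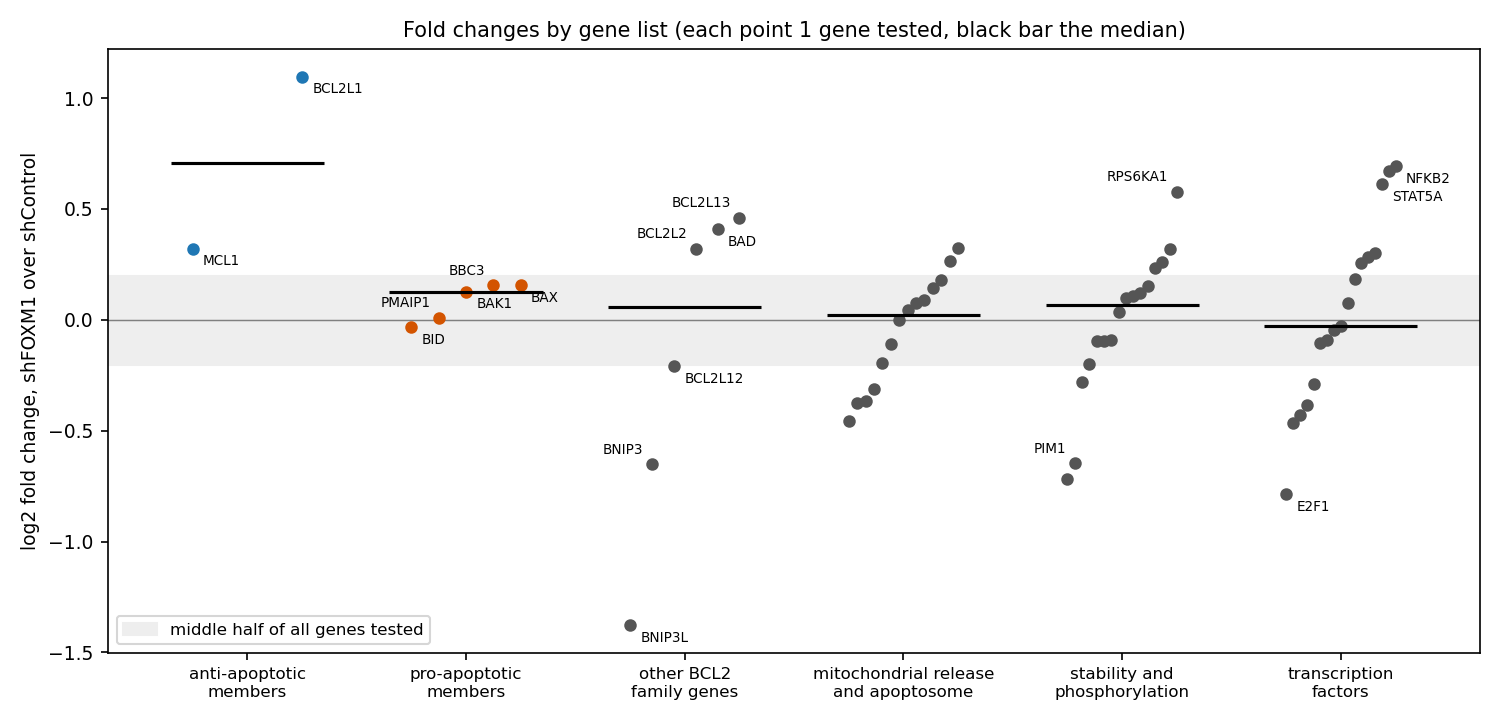
Log2 fold change of shFOXM1 over shControl on the log2(FPKM + 1) scale for every gene tested in 6 lists; each point is a gene, black bars are list medians and the grey band, from -0.20 to 0.20, runs from the lower to the upper quartile of all genes tested. The pro-apoptotic members lie inside the band, while BCL2L1, MCL1 and several other genes lie outside it.

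The 5 genes whose profile over the 4 libraries was most like that of BCL2L1, by Euclidean distance between log2(FPKM + 1) values centred on each gene's mean, were SPATA13-AS1, AL139393.2, PBXIP1, HIST2H2BE and KLHL28, at distances from 0.0927 to 0.171. PBXIP1 was at 7.81 and 14.9 FPKM in shFOXM1 1 and 2, and at 4.76 and 5.12 FPKM in shControl 1 and 2. KLHL28 was at 6.2 and 10.5 FPKM in shFOXM1 1 and 2, and at 3.38 and 3.16 FPKM in shControl 1 and 2. AL139393.2, an antisense transcript, was at 51.1 and 94.1 FPKM in shFOXM1 1 and 2, and at 28.5 and 31.8 FPKM in shControl 1 and 2. All 5 had their highest level in shFOXM1 2, as BCL2L1 did. The choice by profile over these same libraries fixed that in advance. SPATA13-AS1 and HIST2H2BE were under 1 FPKM in both shControl libraries, so they passed the filter only through shFOXM1. Reads of HIST2H2BE are uncertain because histone genes have near-identical copies.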

How the data were processed

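Messenger RNA of 4 Myla libraries was measured by sequencing. The authors deposited an FPKM value per library for each of 58735 genes, beside the gene length used, per the file headers. No aligner, counter or strand setting is stated (not given in the sources used here). GRCm38 and mm10, both mouse builds, appear in the submitters' processing notes, but gene identifiers and positions matched human GENCODE release 29, on GRCh38, for 58735 of 58735 genes. Columns named sh0 were read as shControl and those named sh1 and sh2 as shFOXM1 1 and 2. There were 0 columns of other samples.

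FPKM times gene length, divided by what 1 read is worth in that library (0.0656 to 0.0705 FPKM for a gene of 1 kb), gave whole reads to within 0.001 read for 100% of values. The library size implied by FPKM differed from the total of recovered reads by -1.44% in shFOXM1 1 and 3.80% in shFOXM1 2. In shControl 1 and 2 it differed by 0.319% and -0.173%. The deposited scale was thus not that total. Chi-square per degree of freedom between libraries of a group was 36.5 in shFOXM1 and 3.93 in shControl, above what sampling of reads gives, and each library was 1 replicate.

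The test was limma 3.58.1 (R 4.3.3), two-sided with trended moderation, on log2(FPKM + 1) of genes that reached 1 FPKM in 2 or more libraries. A call needed a Benjamini-Hochberg adjusted p under 0.05 over all of them. This scale understates the change of low genes. The test was checked on simulated data. A comparison of 2 against 2 has a smallest exact permutation p of 0.333, so single values carry none.

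Members and lists were chosen with earlier results of these data known. Named by rule were FOXM1, all members, and all other family genes tested or described. So were up to 4 genes per other list with the smallest unadjusted p, and the 5 genes nearest to the member with the smallest p. SQSTM1, FOXO3, STAT3, STAT5B, the NF-kB subunits other than NFKB2, and overlapping and neighbouring genes were chosen after their values were seen. The same holds for PIM2, PIM3, AKT1 and AKT2. Alternatives were pseudocounts, filters, scalings, moderation, a replicate block, voom on recovered reads and left-out libraries. Of the lists, DIABLO has 2 overlapping entries, both under the filter. One regulator, MARCH5, carries a date in place of its symbol in the table and was matched by its description.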

Additional observations from a re-analysis of the deposited data

How the results depend on the processing

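Under the alternatives tried limma and voom called 0 genes and 0 members, with these exceptions. Voom with library weights called 17 genes higher and 9 lower. With 1 library left out, 0 to 1360 genes were called higher, 0 to 1744 lower and 0 to 2 members. The fits without 1 shControl library made 0 calls, and those without 1 shFOXM1 library take their spread from shControl alone. The members called were BCL2L1 and MCL1 without shFOXM1 1, and BCL2L1 without shFOXM1 2. Of 111 values for the 7 tested members, 103 had the direction and call of the reported value, 3 became calls and 5 turned direction. Of 491 values over all genes tested that were named by rule, 452 kept both, 32 became calls and 7 turned direction. Of those 32 calls, all but that of FOXM1 under voom with library weights came with an shFOXM1 library left out. PMAIP1 was at -0.0030 after quantile normalization and ran from -0.039 to 0.056 over left-out libraries. BID ran from -0.13 to 0.057, BCL2L2 from -0.019 to 0.66 and BCL2L12 from -0.43 to 0.018. BCL2L1 was between 1.10 and 1.12 under all settings that kept the 4 libraries. Filters, moderation and the replicate block cannot move a log2 fold change here. Direction under those settings, also in the counts above, was thus fixed in advance. The log2 difference of the anti-apoptotic to pro-apoptotic ratio ran from 0.33 to 1.00 over left-out libraries. It was 0.23 without BCL2L1 and 1.01 without MCL1, as the terms summed then differ. With all 10 members weighted alike, the 3 not tested included, it was 0.27. Libraries with the same number shared little deviation (correlation 0.0421 over genes, 2 pairs), and with the replicate block limma called 0 genes and 0 members, with BCL2L1 at 1.10 and an adjusted p of 0.188. Median-of-ratios factors were 1 in every library, so the deposited values were already even by that measure and that scaling moved nothing. Depth limits BCL2A1, BCL2L11, BIK, BOK and BCL2L15, which had 9 reads or fewer per library.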
